A study of Homo sapiens with 64 samples.

Results

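The chromatin regions that γ-tubulin antibodies precipitated in shTUBG U2OS cells, in which an shRNA lowers γ-tubulin, were followed over the cell cycle. Members were all peaks in the 4 γ-tubulin lists of this line, with no selection on any measured value. They numbered 236 of the 2442 peaks (9.66%) in the 24 lists of the series.

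U2OS is an established human osteosarcoma line, and shTUBG U2OS is U2OS that stably expresses an shRNA against TUBG, which lowers γ-tubulin without removing it. For ChIP-seq, in which chromatin fragments bound by a protein are precipitated and sequenced, DNA was cut with micrococcal nuclease and rabbit polyclonal γ-tubulin antibodies were used as a mixture. Cells were asynchronous (NS) or were harvested 3, 7 or 9 h after a double thymidine block was lifted, a treatment that holds cells in early S phase and that all released groups share. Parental U2OS cells, which lack the shRNA, were handled at the same times and serve below for comparison. The study refers to a delay of S phase in cells with lowered γ-tubulin. The same hour after release therefore need not be the same cell cycle stage in both lines.

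The labels name 2 samples for each time but a single peak list for both, so 8 samples stand behind the 4 lists and no value has a replicate error. Whether the shRNA line was derived from 1 clone was not stated, and the lists hold no measure of γ-tubulin itself, so the knockdown was not checked here. Read depth is unknown. The number, width and score of peaks can all move with depth or with the efficiency of the precipitation, and a difference between times in these quantities cannot be told apart from such a difference. Intervals on shares are 95% Clopper-Pearson intervals and cover counting error only. Peaks lie in clusters and are not independent.

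γ-Tubulin is the tubulin that nucleates microtubules at centrosomes, and it is also found in the nucleus and in mitochondria. Several kinds of sequence to which its peaks mapped exist in many copies per cell. The mitochondrial genome is a small circular molecule held in many copies outside the nucleus, and nuclear chromosomes carry old insertions of it. Ribosomal RNA genes lie in tandem repeats on the short arms of the acrocentric chromosomes, chromosome 21 among them, and the unplaced hg19 scaffold chrUn_gl000220 holds copies of the repeat. Satellite repeats flank centromeres, and only a small part of them is present in the hg19 assembly. A read from any of these can come from a copy that the assembly lacks, so a peak there marks a kind of sequence rather than a single place. Peaks were put into 5 kinds on this basis, namely mitochondrial genome, chrUn_gl000220, other scaffold, pericentromere (within 5 Mb of the centromere gap of hg19) and chromosome arm. The arm kind was set by position alone, so an arm peak can also lie in a sequence of many copies.

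The asynchronous list was the longest and the 3 h list the shortest. The lists of NS cells and of 3, 7 and 9 h held 94, 33, 42 and 67 peaks. Their median widths were 366, 248, 356 and 328 bp, and together they covered 57239, 9020, 19328 and 27281 bp. The 3 h list was thus low in number, width and bases covered at once. Peaks wider than 1000 bp numbered 12 in NS cells and 0, 0 and 2 at the released times. When peaks within 1000 bp of each other were joined, the numbers became 58, 25, 17 and 30, and the 3 h list was then longer than the 7 h list. Many calls of the 7 h list were therefore neighbours in a few places.

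Chromosome arms held the largest group of peaks in NS cells and at 3 h, and few peaks at 7 h and 9 h. Arm peaks numbered 58 of 94 in NS cells (61.7%, interval 51.1 to 71.5) and 14 of 33 at 3 h (42.4%, 25.5 to 60.8). Later they numbered 4 of 42 (7 h, 9.52%, 2.66 to 22.6) and 8 of 67 (9 h, 11.9%, 5.30 to 22.2). The intervals of NS cells and 3 h overlapped each other and did not overlap those of 7 h and 9 h. They cover counting error only, with a single list per time, so they do not measure variation between times. Of the 58 NS arm peaks, 13, 6 and 6 lay in groups on chromosomes 5, 8 and 19, and 5 in a mitochondrial insertion on chromosome 1. By covered bases the arm shares were 39.3%, 40.9%, 6.56% and 6.70%, so that arms held most NS peaks but not most NS bases. With neighbours merged, the 7 h share was 23.5%. Mitochondrial peaks made up 8.51%, 24.2%, 38.1% and 26.9% of the lists (8, 8, 16 and 18 peaks). For chrUn_gl000220 the shares were 18.1%, 21.2%, 38.1% and 34.3% (17, 7, 16 and 23 peaks). The mitochondrial genome and this scaffold together held most peaks of the 7 h and 9 h lists. With neighbours merged, their shares were 23.5% and 29.4% at 7 h. At 9 h each was then 13.3%, against 50% for pericentromeres. Pericentromere peaks numbered 8, 4, 5 and 17, which was 8.51%, 12.1%, 11.9% and 25.4% of their lists. Other scaffolds held 3, 0, 1 and 1 peaks. The wide asynchronous mitochondrial peaks made the share by bases unlike the share by number, since they were 8.51% of the NS peaks and 26.2% of the bases.

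**Figure D1:**
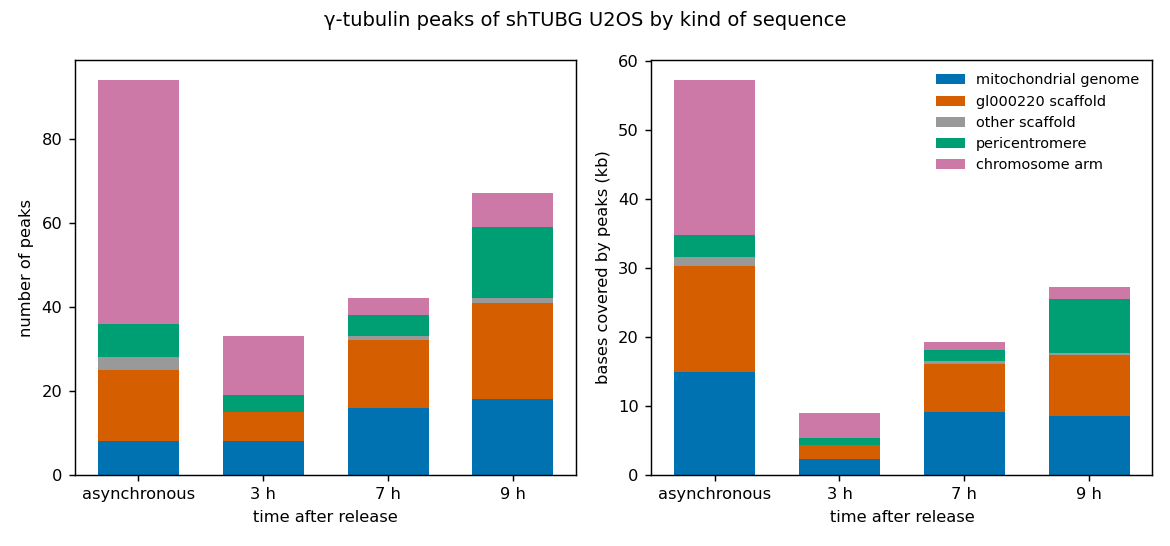
Number of γ-tubulin peaks (left) and kilobases they cover (right) in shTUBG U2OS cells by kind of sequence, with 1 stacked bar for each time. Arm peaks are 58 of 94 peaks and 39.3% of the bases in NS cells, and 4 of 42 and 8 of 67 peaks at 7 h and 9 h. At these later times mitochondrial and chrUn_gl000220 peaks prevail, before neighbours are merged.

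The question put to the positions was which of them were kept from each time to the next. A peak counted as found when it shared at least 25% of both spans with a peak of the other list, which is the overlap the study used for replication origins. Of the 33 peaks at 3 h, 14 (42.4%, 25.5 to 60.8) were found at 7 h. Of the 42 peaks at 7 h, 30 (71.4%, 55.4 to 84.3) were found at 9 h. These intervals overlap, and there is no replicate from which the difference could be tested. By bases, 51.4% of what was covered at 3 h was covered at 7 h, and 65.5% of what was covered at 7 h was covered at 9 h.

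Losses between 3 h and 7 h lay mainly on arms, and the gains by kind resembled the make-up of the whole 7 h list. The 19 peaks of 3 h not found at 7 h comprised 11 on arms, 4 at pericentromeres, 2 mitochondrial and 2 on chrUn_gl000220. The 28 peaks of 7 h not found at 3 h comprised 11 on chrUn_gl000220, 10 mitochondrial, 5 at pericentromeres, 1 on an arm and 1 on another scaffold. In the whole lists, arms held 14 of 33 peaks at 3 h. The mitochondrial genome and chrUn_gl000220 each held 16 of 42 at 7 h. From 7 h to 9 h the gain was of another kind. Of the 33 peaks of 9 h that were not found at 7 h, 15 lay at pericentromeres, 8 on chrUn_gl000220, 6 on arms, 3 on the mitochondrial genome and 1 on another scaffold, whereas 12 peaks of 7 h were not found at 9 h. Pericentromeres held 17 of the 67 peaks of the whole 9 h list, and chrUn_gl000220 held 23.

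Between released and asynchronous cells, matching by span and matching by base gave unlike answers. By the 25% rule the NS list held 18 of the 33 peaks of 3 h (54.5%), 20 of the 42 peaks of 7 h (47.6%) and 26 of the 67 peaks of 9 h (38.8%). A shared base was enough to match 28, 39 and 51 of them (84.8%, 92.9% and 76.1%). All mitochondrial and chrUn_gl000220 peaks of the 3 released lists touched an NS peak. The NS peaks there were wide and the released ones were narrow pieces inside them, as at least 99.0% of the released bases of either kind lay under an NS peak. Pericentromere peaks touched an NS peak in 2 of 4 cases at 3 h and 3 of 5 at 7 h, and in 2 of 17 cases at 9 h, when 11.0% of their bases were shared. At each released time 2 of the touching peaks lay on the short arm of chromosome 21. The remaining 7 h case lay on chromosome 7, and no other pericentromere peak touched an NS peak. In the other direction, 16, 19 and 22 of the 94 NS peaks were found at 3, 7 and 9 h.

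**Figure D2:**
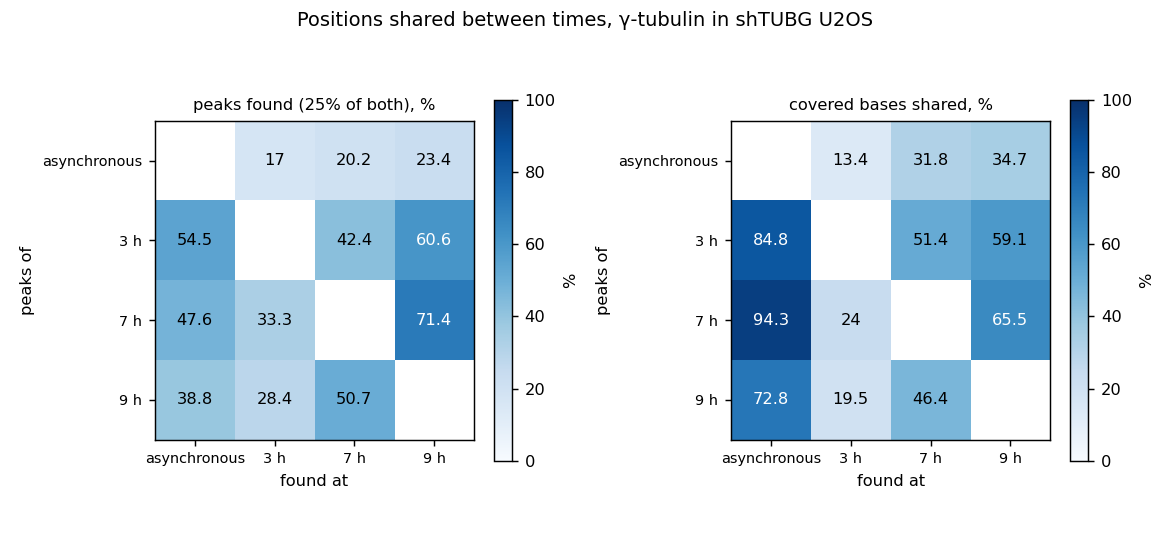
Percent of the peaks of the row's time found in the column's list by at least 25% of both spans (left), and percent of the row's covered bases that the column's list also covers (right), for γ-tubulin in shTUBG U2OS cells. The 7 h row reaches 71.4% of peaks at 9 h and 94.3% of bases in NS cells, whereas the NS row stays at or below 23.4% of peaks.

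Merging peaks of all 4 lists that overlapped by 1 bp gave 118 regions. Most were seen once, 80 at 1 time, 17 at 2, 9 at 3 and 12 at all 4. Of the single-time regions, 56 were called in NS cells and 5, 3 and 16 at 3, 7 and 9 h. Persistence went with the kind of sequence. All 8 mitochondrial regions were called at 2 or more times and 4 of them at all 4, whereas 51 of 63 arm regions and 24 of 27 pericentromere regions were called at 1 time. By bases, 14.7% of the mitochondrial sequence ever called, 8.78% of that on chrUn_gl000220, 1.68% of that on arms and 1.09% of that at pericentromeres was called at all 4 times. No test was made of these shares, and a region built from wide NS peaks has more room to be met by the other lists.

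The 12 regions called at all 4 times were 4 mitochondrial, 4 on chrUn_gl000220, 2 on the short arm of chromosome 21 and 2 on other arms. On chromosome 1 the region was chr1:565633-566679, near the end of the short arm, where a long insertion of mitochondrial sequence lies. Its best scores in NS cells and at the 3 released times were 350, 68, 150 and 82, which ranked 1 of 94, 8 of 33, 5 of 42 and 31 of 67. It was the top peak of the asynchronous list and lay near the middle at 9 h. The score is a whole number that the authors deposited with each peak. Its meaning was not stated, so ranks within a list are the safer measure. The region chr8:70602291-70602557 scored 104, 72, 68 and 55 (ranks 29, 7, 27 and 51), and of the 20 other lists of the series only 1 had a peak there, so among the 12 it was the region with the fewest calls elsewhere. Its peaks were between 200 and 267 bp wide at every time.

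On the short arm of chromosome 21, the neighbouring regions chr21:9825473-9826406 and chr21:9826724-9827592 were kept throughout. Scores were 148, 45, 62 and 103 in the first of them, and 170, 58, 87 and 128 in the other. The latter ranked 15 of 94, 11 of 33, 18 of 42 and 5 of 67. Both were called in few other lists, 2 and 5 of 20. They were the only pericentromere regions, by the 5 Mb rule, that were called at more than 2 times, and they account for all pericentromere bases called at all 4 times.

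The mitochondrial genome was covered almost whole in NS cells and in pieces after release. Of its 16571 bp, peaks covered 90.4% in NS cells and 14%, 54.9% and 51.4% after 3, 7 and 9 h. The number of peaks did not follow the coverage, with 8, 8, 16 and 18 peaks of median width 1503, 241.5, 561 and 426 bp. A few broad peaks in NS cells thus corresponded to many narrow ones at 7 h and 9 h. The longest peak of all 4 lists was the NS peak chrM:25-4136, 4112 bp, followed by the NS peak chrM:10521-13602, 3082 bp. At 3 h all peaks lay between positions 989 and 9943, and none lay in the remaining stretch up to the end.

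The 4 mitochondrial regions called at every time were chrM:25-4136, chrM:5432-6729, chrM:6783-8248 and chrM:8430-9969. The last of them scored 305, 74, 147 and 128, with ranks of 2, 6, 7 and 5 in the NS, 3, 7 and 9 h lists, so it stayed near the top at every time. By contrast the ranks of chrM:6783-8248 were 9 of 94, 33 of 33, 6 of 42 and 49 of 67. In chrM:25-4136, which begins in the control region and runs through the ribosomal RNA genes, the best scores were 75, 63, 153 and 142, and the rank went from 48 of 94 in NS cells to 1 of 67 at 9 h, shared with another peak. These are the best of 1, 5, 4 and 4 peaks, and taking the best of more peaks can itself raise a rank. Within these regions 9 runs of 153 to 342 bp, 2198 bp in all, were called at all 4 times. A further 1598 bp (9.64% of the genome) were called at no time, the longest runs being chrM:14128-14694 and chrM:9970-10520. Those gaps are the spaces between the NS peaks, so they rest on a single list. The rest of the genome lacked calls at 3 h. There chrM:10521-13602 scored 101, 88 and 111 in the NS, 7 h and 9 h lists, and chrM:14695-16558, which ends in the control region, scored 203, 167 and 92 and held the top peak at 7 h. In U2OS cells the γ-tubulin peaks covered 97.1%, 98.7%, 97.0% and 99.2% of the mitochondrial genome at the same times, so coverage in pieces was a feature of the shTUBG lists after release. PCNA lists of the shTUBG line covered 72%, 11.7%, 13.7% and 1.60%, which was also widest in NS cells. The NS PCNA list was itself in pieces, with 17 peaks of median width 580 bp.

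**Figure D3:**
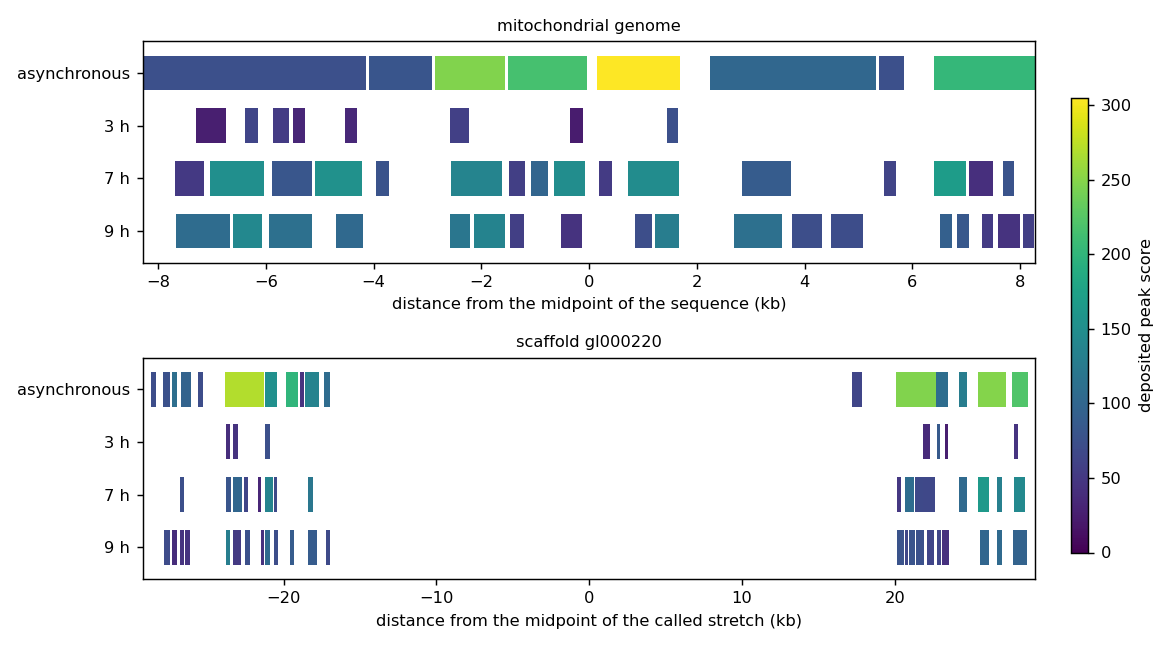
Position of each γ-tubulin peak on the mitochondrial genome and on chrUn_gl000220 in shTUBG U2OS cells, drawn to scale as distance from the midpoint, with a row for each time and colour for the deposited score. The NS peaks cover 90.4% of the mitochondrial genome and the 3 h peaks 14%, and on the scaffold the peaks fall into a pair of clusters at each time.

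On chrUn_gl000220 the peaks fell into a pair of clusters, from 104328 to 116100 and from 150272 to 161767. The first held 11, 3, 8 and 13 peaks in NS cells and at 3, 7 and 9 h, and the second held 6, 4, 8 and 10. Bases covered on the scaffold were 15344, 1963, 6993 and 8851. The clusters resemble each other in layout. A shift of 43971 bp, set on 83 peaks of 12 other lists, placed 11 of 17, 2 of 7, 10 of 16 and 17 of 23 peaks on a peak of the other cluster in the same list. Reads of repeated copies can be placed in either cluster, so the clusters are not independent measurements.

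Regions called at all times were chrUn_gl000220:109179-111759, 111829-112639, 153161-155726 and 160727-161767. Best scores in the first were 270, 45, 100 and 129 (ranks 3, 20, 15 and 4), in the second 152, 75, 138 and 106 (ranks 17, 5, 9 and 15), in the third 247, 36, 108 and 79 (ranks 6, 25, 13 and 32) and in the last 221, 46, 143 and 96 (ranks 8, 19, 8 and 25). The best scores were taken over 1, 2, 4 and 4 peaks in the first region and 1, 1, 2 and 2 in the second. In the third they were taken over 1, 1, 4 and 5 peaks, so times are not compared on equal numbers. The region at 109179 also held the third widest peak of all lists, 2581 bp in NS cells. At 3 h the second of these led, whereas the first led in NS cells and at 9 h and the last at 7 h. At 158496-160371 the best scores were 248, 164 and 104 in NS cells, at 7 h and at 9 h, with ranks of 5, 2 and 17, and nothing was called at 3 h. Also without a call at 3 h were 106274-106953 (96, 73 and 46) and 114410-115363 (136, 121 and 87). At 155784-156620 the list without a call was 7 h, and the scores in the others were 108, 85 and 62. At 3 h the last named held the third highest peak of the list. U2OS cells had 11, 9, 0 and 5 γ-tubulin peaks on this scaffold, so at 7 h the 16 peaks of shTUBG cells stood against none. The PCNA lists of shTUBG cells had 7, 0, 2 and 0.

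Nuclear regions called at 3 times included a few places on arms. At chr19:55813976-55814274 the score was 139 in NS cells, 167 at 3 h and 107 at 9 h, ranking 19 of 94, 1 of 33 and 13 of 67, with no peak at 7 h. It was the top peak of the 3 h list. At chr4:167501217-167501815 the scores were 111, 30 and 56 in NS cells, at 3 h and at 7 h. At chr17:40818047-40818599 they were 84, 47 and 32 in NS cells, at 3 h and at 9 h. Both had peaks in 2 or fewer of the 20 other lists. From general knowledge of hg19, since no annotation of that build was used, the chromosome 17 region lies in TUBG2, a gene for γ-tubulin, the peaks between 40766222 and 40767005 (scores 88 and 48 in NS cells and 44 at 9 h) lie in its neighbour TUBG1, and the chromosome 19 region lies in BRSK1, a protein kinase gene. All 3 loci had peaks in NS cells and at 9 h, and none at 7 h, in the shTUBG γ-tubulin lists. The chromosome 19 region had peaks in 7 of the 20 other lists, among them U2OS Mcm5 at 4 times. Each TUBG1 region had peaks in 3. Of the 6 chromosome 17 peaks, 3 and 2 touched a U2OS γ-tubulin peak of 3 h and 7 h, and 0 one of NS cells or 9 h.

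Most regions seen at a single time belonged to NS cells. Of the 56 such regions 46 lay on arms, and 45 of the 56 had no peak in any of the 20 other lists. Of all 80 regions called at 1 time 51 had none, against 5 of 17 called at 2 times. All regions called at 3 or 4 times had a peak in another list. Chromosome 5 held the largest group of arm peaks, 17 peaks over 81.2 kb from 17518296 to 17599509. Of these 13 were called in NS cells (scores 52 to 113) and 4 at 3 h (36 to 48), and none at 7 h or 9 h. No U2OS γ-tubulin list had a peak there, and 14 of the 17 peaks were in none of the other lists. A further 6 NS peaks lay over 236 kb of chromosome 8 from 86555290 to 86791048, with scores of 26 to 67, and 6 lay on chromosome 19 from 36766492 to 37786754, with scores of 28 to 82. Neither group had a peak at another time or in any other list. These groups were singled out after their counts were seen. Whether their sequence is repeated in the genome was not checked. The best ranks of the 3 groups in the NS list were 23, 57 and 40 of 94.

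The highest-scoring NS regions with no call at the other times were of another sort. They were chr1:564674-565362 (251), chr1:567277-568193 (205) and chr13:110076394-110076734 (173), and these had peaks in 12, 10 and 8 other lists. The first and second of these flank the chromosome 1 region called at every time, in the same mitochondrial insertion, which had 5 peaks in NS cells and 1, 1 and 2 after release.

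Few regions were called at 3 h or 7 h alone. At 3 h they included chr7:43959196-43959411 (score 81, rank 4 of 33), chr7:56438165-56438451 (56) and chr1:236877368-236877735 (55). At 7 h all 3 were chr1:236260426-236260657 (74), chr7:56438624-56438835 (41) and chr7:56442082-56442315 (26, the lowest rank of the list). A stretch of the chromosome 7 pericentromere thus recurred with shifted calls. Between 56438165 and 56442315 it held 1, 1, 3 and 1 peaks in the NS, 3, 7 and 9 h lists, and the only overlap among them was between NS and 7 h.

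At 9 h a set of regions at the edges of centromeres, where satellite repeats lie, was called that no other shTUBG γ-tubulin list contained. Of the 16 regions called at 9 h alone, 14 were of this kind, 10 on chromosome 10 between 42384573 and 42600098 and 1 each on chromosomes 1, 2, 7 and 19. They lay 50 to 914 kb from the centromere gap. Their widths were 204 to 1350 bp with a median of 329 bp. Scores ran from 33 to 142 with a median of 102.5, against 76 for the whole 9 h list, and ranks from 1 to 65 of 67. The set thus included the top of the list and nearly its end. Highest was chr1:121484077-121485426 (142), which shared rank 1 with a mitochondrial peak, followed within the set by chr10:42596815-42597219 (118) and chr10:42599573-42600098 (117).

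None of these 14 regions was called in NS cells, at 3 h or at 7 h in the shTUBG γ-tubulin lists. In U2OS cells all 14 had a γ-tubulin peak at each of the 4 times. PCNA lists of the shTUBG line had all 14 in NS cells, at 3 h and at 9 h, and 10 of 14 at 7 h. In the U2OS lists of PCNA and Mcm5, the 14 were present in NS cells, at 3 h and at 9 h and absent at 7 h. PCNA is the clamp that holds DNA polymerases on the template, and Mcm5 is part of the helicase that opens replication origins. The 14 were picked as the regions of 9 h alone with a peak in at least 17 of the 20 other lists, a limit set after the counts were seen, so their presence elsewhere is a description. The NS, 3 h and 7 h γ-tubulin lists of shTUBG cells were among the 5 lists of the series that had none. Whether the calls at 9 h follow from more reads in that list was not tested.

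**Figure D4:**
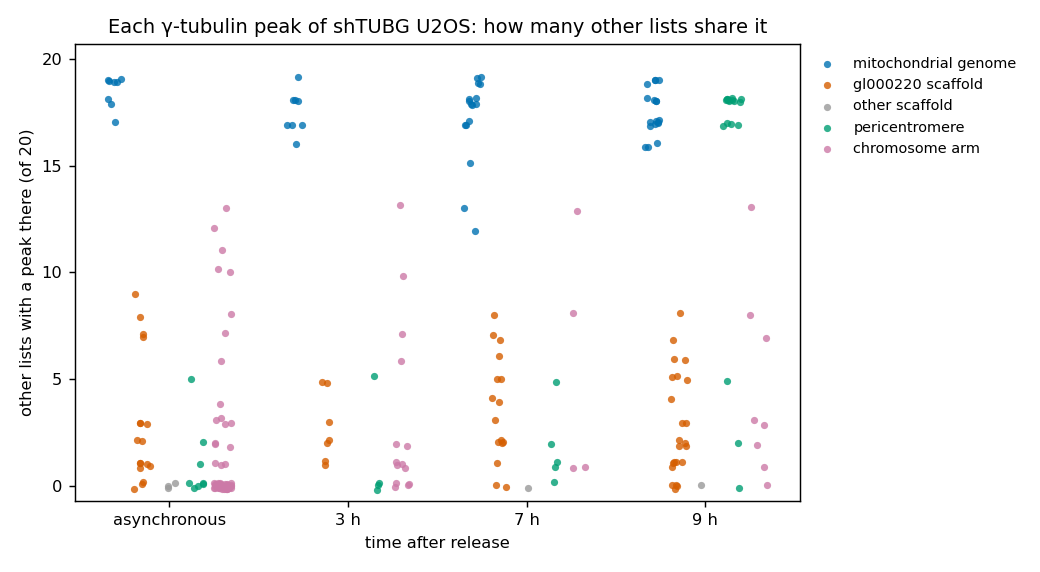
Number of the 20 other lists of the series (U2OS lists and shTUBG PCNA lists) that have a peak overlapping each shTUBG γ-tubulin peak by at least 1 bp, by time and kind. Points at 0 prevail in NS cells (50 of 94 peaks), and the 9 h pericentromere points gather at 17 and 18 lists.

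Peaks were set against the rest of the series by counting, for each, how many other lists had a peak there. In NS cells 50 of 94 peaks (53.2%, 42.6 to 63.6) overlapped no peak of any of the 20 other lists. After release the numbers were 7 of 33 (3 h, 21.2%, 8.98 to 38.9), 4 of 42 (7 h, 9.52%, 2.66 to 22.6) and 7 of 67 (9 h, 10.4%, 4.30 to 20.3). The NS interval stood apart from the other 3, but it covers counting error only and does not measure variation between times. Many of the NS peaks in no other list were neighbours in the groups on chromosomes 5, 8 and 19. The median number of other lists with a peak was 0, 2, 6.5 and 8. Without the 14 centromere-edge regions, which were picked for this count, the 9 h median over 53 peaks was 5, and 7 of 53 (13.2%, 5.48 to 25.3) were in none. Regions called at all 4 times had a median of 7.5 other lists (range 1 to 19), and those called once had a median of 0. Peaks on other scaffolds, 5 in all on chrUn_gl000222 and chrUn_gl000228, were in no other list, whereas every mitochondrial peak was in at least 12.

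The rank of a kind of sequence within a list also moved between times. Score percentiles run from the lowest peak of a list up to 100 at its highest. Mitochondrial peaks had median percentiles of 78.7, 37.9, 59.5 and 59.7 in the NS, 3, 7 and 9 h lists. For chrUn_gl000220 the medians were 73.4, 40.9, 60.7 and 44.0. Both kinds led the asynchronous list and stood in the lower part of the 3 h list. Arm peaks had medians of 40.7, 59.1, 42.9 and 34.3, so that 3 h was the time at which arm peaks led. Pericentromere peaks had medians of 18.4, 52.3, 28.6 and 71.6, and at 9 h they were the highest-ranked kind.

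The leading peaks of a list were not always of the kind with the highest median. In NS cells they were chr1:565740-566632 (350), on an arm, chrM:8430-9969 (305) and chrUn_gl000220:109179-111759 (270). At 3 h they were chr19:55813976-55814223 (167), chr1:91852802-91853057 (123) and chrUn_gl000220:155797-156000 (85). At 7 h they were chrM:14695-15290 (167), chrUn_gl000220:158506-159202 (164) and chrM:3201-4063 (153). The 9 h list was led by chr1:121484077-121485426 and chrM:1680-2215 (142 each), followed by chrM:6144-6725 (136). The median score was 75.5, 48, 78 and 76 in the 4 lists, values that need not be on a shared scale.

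**Figure D5:**
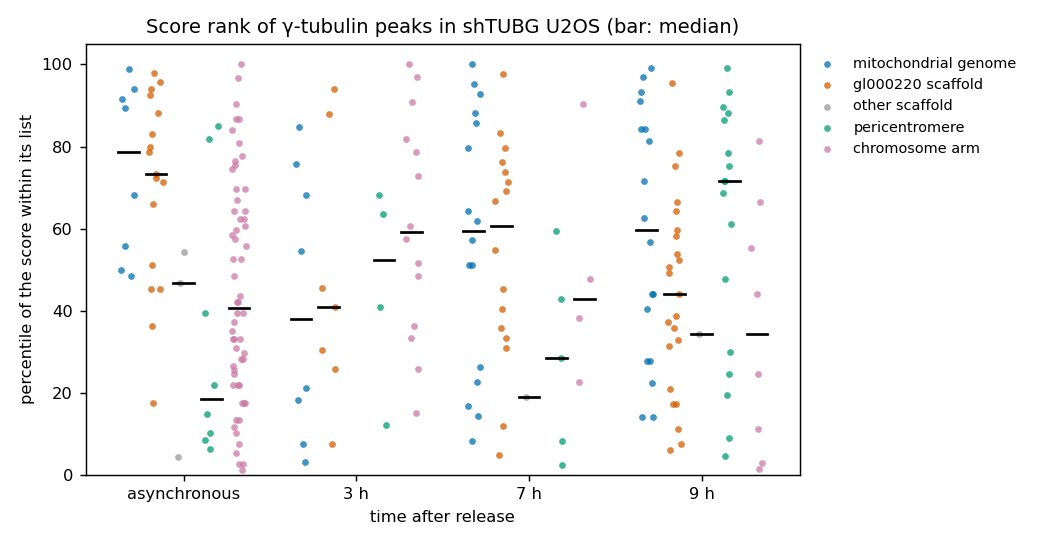
Score percentile within its own list of each shTUBG γ-tubulin peak, by time and kind of sequence, with bars at the medians. Mitochondrial peaks have a median of 78.7 in NS cells and 37.9 at 3 h, and pericentromere peaks have a median of 18.4 in NS cells and 71.6 at 9 h.

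The parental line was used to ask which kinds of sequence set the shTUBG lists apart. U2OS γ-tubulin lists held 102, 123, 75 and 153 peaks at the same times. Pericentromere peaks made up 43.1%, 49.6%, 52.0% and 56.2% of them, against 8.51%, 12.1%, 11.9% and 25.4% in shTUBG cells. The share was lower in shTUBG cells at 4 of 4 times, with a mean difference of -35.8 percentage points (14.5% against 50.2%, SD of the differences 3.97, n = 4 times). The exact permutation test, two-sided and flipping the sign of each time's difference, gave a p of 0.13. This is the smallest that 4 pairs can give, and after adjustment over the 4 quantities compared it was 0.167, so this design cannot reach the usual threshold. The same pair of lines was compared at all 4 times. The SDs and p-values here therefore describe spread over times and do not measure variation between lines. Mitochondrial peaks were 4.90%, 2.44%, 6.67% and 1.96% of the U2OS lists, a share that was 20.4 points higher in shTUBG cells on average (SD 11.9, higher at 4 of 4 times, exact permutation p = 0.13, adjusted 0.167). The mean share of chrUn_gl000220 was 27.9% in shTUBG cells and 5.34% in U2OS (difference 22.6 points, SD 14.4, higher at 4 of 4 times, exact permutation p = 0.13, adjusted 0.167). When peaks within 1000 bp were merged, the mitochondrial and chrUn_gl000220 differences were 11.8 and 10.8 points and the exact permutation p was 0.25 for both. Both shares were then higher in shTUBG cells at 3 of 4 times and lower in NS cells, where the mitochondrial share was 1.72% against 2.13% and that of chrUn_gl000220 6.90% against 8.51%. The median width differed by less than its spread over times (-18.6 bp, shTUBG minus U2OS, SD 38.3, exact permutation p = 0.5). U2OS mitochondrial peaks were few and long, up to 8301 bp, which lowers their share by number. By covered bases the mean mitochondrial share was 32.5% in shTUBG cells and 24.8% in U2OS, a difference of 7.75 points (SD 6.97, exact permutation p = 0.25). It was higher at 3 of 4 times, and in NS cells it was 26.2% against 26.5%. The mitochondrial bases themselves were fewer in shTUBG cells at each time, 14973, 2314, 9099 and 8517 bp against 16084, 16348, 16068 and 16443 bp. The kinds divide a single whole, so their differences in share are not separate results. The shares of pericentromeres and chrUn_gl000220 by bases differed by -32.3 and 25.6 points, with the same direction at 4 of 4 times (exact permutation p = 0.13 for both). The shares by bases were compared after the data were seen.

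Seen from the parental line, 29 of 102 U2OS γ-tubulin peaks (28.4%, 19.9 to 38.2) touched an shTUBG peak of the same time in NS cells. After release they numbered 11 of 123 (3 h, 8.94%, 4.55 to 15.4), 6 of 75 (7 h, 8.0%, 2.99 to 16.6) and 23 of 153 (9 h, 15.0%, 9.77 to 21.7). What remained was uneven by kind. U2OS peaks on chrUn_gl000220 were met in 11 of 11 cases in NS cells, 4 of 9 at 3 h and 5 of 5 at 9 h, and those at pericentromeres in 1 of 44, 1 of 61, 0 of 39 and 12 of 86. Arm peaks of U2OS were met in 13 of 25, 4 of 30, 2 of 19 and 3 of 38 cases at the same times. Mitochondrial ones were met in 4 of 5, 2 of 3, 4 of 5 and 3 of 3. U2OS peaks on other scaffolds, 12 to 21 per list, were met in 0 cases at each of the 4 times.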

How the data were processed

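Peak lists of 24 immunoprecipitates were used. Per the submitters' processing notes, reads were handled with Bowtie2 2.1.0 and SAMtools 1.7-13 and peaks called with MACS2 on hg19. Caller options, the use of input, duplicates and excluded regions, and how the 2 samples were pooled are not given in the sources used here. The deposited score of each peak is a whole number with no stated meaning and was ranked within a list. Where scores of several lists are printed side by side, they need not share a scale. Starts and ends are printed counted from 1. No genome of this build was at hand, so no sequence was read and no gene assigned from an annotation.

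Positions were compared in Python 3.11.15 with numpy 2.4.6, scipy 1.17.1 and matplotlib 3.10.9. Peaks were found again when 25% of both was shared. Regions were peaks merged at 1 bp. Distances to centromere gaps used a hand-written table of hg19. Lines were compared by two-sided exact sign-flip permutation tests over 4 times, adjusted by the Benjamini-Hochberg method over 4 quantities, and times were not tested. The functions were tested on simulated peaks. Regions were named by a rule, namely those called at 4 times or at 3 times, the 3 highest peaks of each list, the 3 highest regions of each single time and the 3 widest peaks. The members, kinds and lists were chosen with earlier results of these data known. The limit of 17 lists, the chromosome groups, the shares of bases kept and of bases between lines, the 9 h count without the centromere-edge regions and the count without the chromosome 21 short arm were chosen after the data were seen.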

Additional observations from a re-analysis of the deposited data

How the results depend on the processing

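Over 32 results, 149 alternatives were computed. Of these 125 changed little (a share within its interval, a count within 1.5 times, a mean difference between lines with the same sign), 24 moved the value and 0 reversed it, and 27 of the 149 were chosen after the data were seen. Merging peaks within 1000 bp moved most. The number of peaks became 58 in NS cells, 17 at 7 h and 30 at 9 h, and the share of 3 h peaks found at 7 h became 20%. Regions called at 4 times became 7. Mitochondrial shares became 1.72% in NS cells, 23.5% at 7 h and 13.3% at 9 h, those of chrUn_gl000220 6.90% in NS cells and 13.3% at 9 h, and the pericentromere share at 9 h 50%. Arm shares became 74.1% in NS cells and 23.5% at 7 h. Overlap by 50% of both spans left 21.2% of 3 h peaks found at 7 h and 52.4% of 7 h peaks found at 9 h. With only peaks that reached their list's median score, 23.5% of 3 h peaks were found at 7 h, 5 regions were called at 4 times, and chrUn_gl000220 held 27.7% of the NS list. Without mitochondrial peaks the 7 h list had 26. By covered bases the NS shares were 26.2% for mitochondrial and 39.3% for arm peaks, and the mitochondrial difference between lines was 7.75 points. The joining of neighbours and the loss of matches under stricter overlap follow from how these alternatives are built.

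Leaving out a time kept the direction of each difference between lines, with ranges of 16.8 to 26.0 points for mitochondrial, -37.4 to -34.3 for pericentromere and 17.4 to 27.7 for chrUn_gl000220 peaks, and -30.2 to -4.5 bp for median width. With 3 pairs the smallest p is 0.25. Without mitochondrial peaks the difference in median width was -31.1 bp (shTUBG minus U2OS, exact permutation p = 0.13). No paired analysis was possible between labelled samples, because both samples of a time share a list without replicate numbers. The pairs used between lines are times. Leaving out a replicate could not be tried either. Read depth, which limits how many peaks a list can hold, is unknown.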
